A study of Homo sapiens with 12 samples.

Results

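The megakaryocyte and platelet genes described here were 10 named genes, ITGA2B, ITGB3, GP1BA, GP1BB, GP9, PF4, PPBP, THBS1, FLI1 and RUNX1, taken by symbol from a table of 28278 genes. They were followed across every group of an RNA sequencing study of K562 cells, an established human erythroleukaemia line. Unedited cells (WT) were compared with cells in which HRG1, the heme transporter encoded by SLC48A1, had been knocked out (KO), each with and without sodium butyrate, an inhibitor of histone deacetylases. That gave 4 groups of 3 libraries: untreated WT, butyrate-treated WT, untreated KO and butyrate-treated KO. Treated cells received 0.75 mM butyrate 24 h after plating and again 48 h later, and were harvested 6 h after that second dose, while untreated cells received none. The design text places the experiment at day 8 of differentiation. How HRG1 was knocked out, in how many clones, and whether the replicates are separate cultures, is not stated, so p-values measure only the spread between these libraries, which may be technical.

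Megakaryocytes are the bone marrow cells that shed platelets, and they share a progenitor with the erythroid lineage. K562 cells carry features of both lineages, and the agent they are exposed to influences which programme they express. Platelets stick to injured vessel wall through the glycoprotein Ib-IX complex, which binds von Willebrand factor and is built from the products of GP1BA, GP1BB and GP9. They bind each other through the fibrinogen receptor, an integrin whose alpha chain is encoded by ITGA2B and whose beta chain is encoded by ITGB3. Their alpha granules release PF4, PPBP and thrombospondin 1 (THBS1), and the transcription factors FLI1, an ETS protein, and RUNX1 act on many of these genes.

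The sum of counts per library ran from 19963594 to 30348538. Levels are given as CPM, counts scaled to library size with TMM factors, and 3 counts, taken as the limit of detection, corresponded to 0.0953 to 0.162 CPM. This limit covers counting error only. SLC48A1 was at 73.7 ± 8.42 CPM in untreated WT and 5.94 ± 2.74 CPM in untreated KO, and at 67.8 ± 13.9 CPM and 8.03 ± 2.04 CPM in the treated groups (SD, n = 3), so its level followed the genotype labels. In each group the library numbered 1 had the highest share of counts on the ribosomal RNA gene RNA28SN5. That share was 5.63% in replicate 1 of treated WT, which also had the lowest TMM factor, 0.840, and it ran from 0.673% to 4.69% in the other 11 libraries. Calls on the 10 genes, and counts over all further megakaryocyte lists, are therefore also given without the 4 libraries numbered 1 where these change. In such bulk extracts, fewer cells of a type and less RNA per cell cannot be told apart.

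Promoter windows, from 250 bases before to 50 bases after the start site that RefSeq's window table uses (GRCh38.p14), were found for 6 of the 10 genes: ITGA2B, GP1BB, GP9, PPBP, THBS1 and RUNX1. Those of ITGA2B (chr17:44389600-44389899, minus strand), THBS1 (chr15:39580829-39581128, plus strand), GP9 (chr3:129060529-129060828, plus strand) and PPBP (chr4:73988141-73988440, minus strand) are shown because these genes had 4 different patterns in the counts. ITGA2B was lower in KO and higher with butyrate, THBS1 was higher with either, GP9 had counts in KO libraries only, and PPBP was close to 0 throughout. Capitals mark matches, on either strand, to AGATAA (the letters bound by GATA factors), AGGAAG (ETS factors) or TGTGGT (RUNX factors).
ITGA2B: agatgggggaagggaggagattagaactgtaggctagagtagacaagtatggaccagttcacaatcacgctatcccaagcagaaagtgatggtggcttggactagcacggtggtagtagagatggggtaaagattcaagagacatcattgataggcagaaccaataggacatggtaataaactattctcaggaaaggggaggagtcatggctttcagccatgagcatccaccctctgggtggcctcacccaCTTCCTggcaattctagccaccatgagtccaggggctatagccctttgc
THBS1: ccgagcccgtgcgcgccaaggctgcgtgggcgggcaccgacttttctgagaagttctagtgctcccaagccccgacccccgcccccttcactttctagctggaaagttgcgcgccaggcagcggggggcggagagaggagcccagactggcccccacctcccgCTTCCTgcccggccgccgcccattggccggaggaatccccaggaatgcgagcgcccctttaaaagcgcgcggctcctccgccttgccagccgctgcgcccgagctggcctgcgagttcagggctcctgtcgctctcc
GP9: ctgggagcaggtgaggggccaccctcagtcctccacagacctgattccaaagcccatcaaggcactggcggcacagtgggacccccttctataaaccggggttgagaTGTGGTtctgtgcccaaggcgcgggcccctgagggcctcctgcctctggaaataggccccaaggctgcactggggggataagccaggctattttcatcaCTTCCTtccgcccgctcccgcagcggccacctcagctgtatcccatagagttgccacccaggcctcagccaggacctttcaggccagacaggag
PPBP: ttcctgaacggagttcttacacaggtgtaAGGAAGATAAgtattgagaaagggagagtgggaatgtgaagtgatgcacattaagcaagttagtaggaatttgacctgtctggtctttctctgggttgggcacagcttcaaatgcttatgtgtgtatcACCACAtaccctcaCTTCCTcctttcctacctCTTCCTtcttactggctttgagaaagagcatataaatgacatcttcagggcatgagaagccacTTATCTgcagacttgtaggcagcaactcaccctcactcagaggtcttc
Counting that start site as position 1, with no position 0, the ITGA2B window held 1 match, to AGGAAG at position 2 on the opposite strand. THBS1 likewise held 1 match to AGGAAG, at position -87. GP9 held TGTGGT at position -143 and AGGAAG at position -44. PPBP held 6 matches, to AGATAA at positions -217 and 3, to AGGAAG at positions -221, -79 and -61 and to TGTGGT at position -93, and the matches at -221 and -217 overlap. Of the 35116 RefSeq windows of this length, 10.3% held AGATAA, 33.6% held AGGAAG and 13.1% held TGTGGT. The window with the most matches thus belonged to a gene with almost no counts. The windows of GP9 and RUNX1 lie inside the spans given for these genes, not at their outer ends, so positions there count from an inner start site. GP1BB held a single TGTGGT match at position -70 and RUNX1 held none of the 3 motifs. A match is a description of the letters only.

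Counts divided the 10 genes into 3 classes. ITGA2B, ITGB3, GP1BA, THBS1 and RUNX1 had counts in every library. GP9 had counts in the 6 KO libraries and 0 in the 6 WT libraries. The remaining 4 genes were at or near 0: PF4 and GP1BB had 0 counts in all 12 libraries, PPBP had 5 counts in 1 library, and FLI1 had 5 counts in 1 library and 4 in another. Of the genes that define megakaryocytes and platelets, both integrin chains and GP1BA were therefore present, while the platelet chemokines and FLI1 were at or near 0. The low-count filter kept 6 of the 10 genes, and GP9 passed it only through the treated KO group, where it was high.

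**Figure D1:**
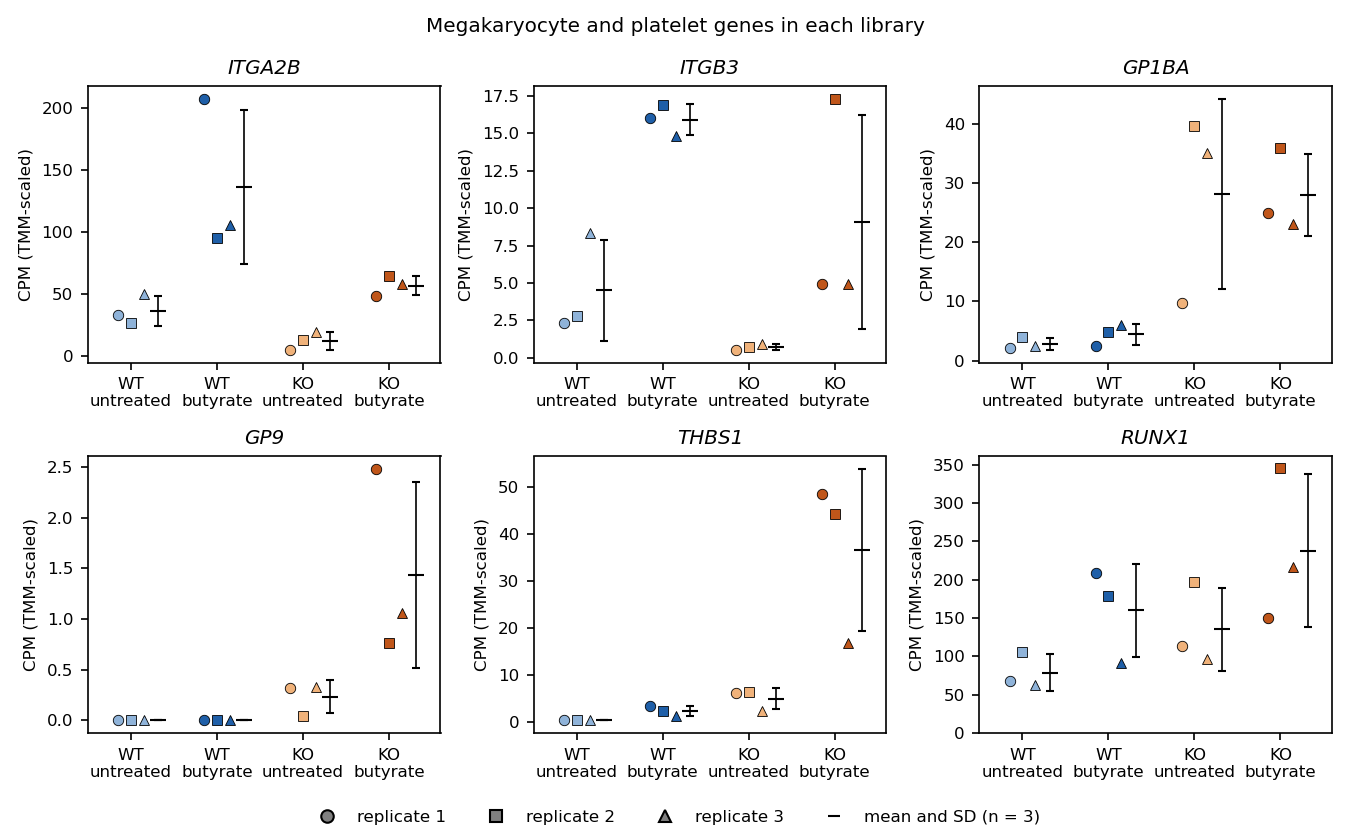
TMM-scaled CPM (vertical axis, linear) of 6 genes in each of the 12 libraries, by group; circles, squares and triangles are replicates 1, 2 and 3, and the bars to the right of each group are the mean and SD (n = 3). ITGA2B and ITGB3 were lowest in untreated KO, THBS1 was highest in treated KO, GP1BA separated KO from WT with or without butyrate, and GP9 was at 0 in every WT library.

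ITGA2B, the alpha chain of the fibrinogen receptor (chr17:44372181-44389649), had the same direction of response to butyrate in both genotypes and was lower in untreated KO than in untreated WT. Untreated WT replicates 1, 2 and 3 held 33.0, 26.2 and 49.5 CPM and treated WT held 208, 95.0 and 106 CPM. Untreated KO held 4.55, 12.2 and 18.9 CPM and treated KO held 48.2, 64.1 and 57.8 CPM. From lowest to highest the groups were untreated KO, untreated WT, treated KO and treated WT, and of the neighbours only untreated WT and treated KO overlapped. Replicate 1 was the highest of treated WT and the lowest of untreated KO.

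With butyrate ITGA2B rose by 1.91 ± 0.43 (SE) on the log2 scale in WT, a 3.76-fold change (edgeR adjusted p = 0.0463). In KO it rose by 2.25 ± 0.44, or 4.75-fold (edgeR adjusted p = 0.0230). Between the untreated genotypes it fell by 1.60 ± 0.44 in KO (edgeR adjusted p = 0.0212), and between the treated genotypes the difference was -1.27 ± 0.43 with edgeR adjusted p = 0.0616. That last difference passed the threshold with the replicate number as a block (edgeR adjusted p = 0.0354), and the treated groups did not overlap. The WT response was at the edge of the threshold: leaving out any 1 of the 6 WT libraries gave edgeR adjusted p from 0.0579 to 0.179. It was also lost on leaving out treated KO replicate 2 or 3 or untreated KO replicate 2, with edgeR adjusted p from 0.0679 to 0.0748. The KO response lost the call without untreated KO replicate 1 or 2 or treated KO replicate 2 or 3 (edgeR adjusted p from 0.0537 to 0.121). The untreated genotype difference lost it without untreated WT replicate 3, untreated KO replicate 1 or untreated KO replicate 2, with edgeR adjusted p of 0.0878, 0.0511 and 0.0663. Without the 4 libraries numbered 1, both butyrate responses and the untreated genotype difference kept adjusted p under the threshold of 0.05 (edgeR adjusted p of 0.0190, 0.00437 and 0.0120).

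ITGB3, the beta chain that pairs with the ITGA2B product and with the alpha V integrin chain (chr17:47253827-47313743), rose with butyrate in KO. Untreated WT held 2.33, 2.83 and 8.34 CPM and treated WT held 16.0, 16.9 and 14.8 CPM. Untreated KO held 0.535, 0.761 and 0.936 CPM, from 10, 16 and 28 counts, and treated KO held 4.91, 17.3 and 4.93 CPM. Treated KO replicate 2 lay just above the treated WT libraries, and the other 2 treated KO libraries lay inside the range of untreated WT.

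The rise of ITGB3 in KO was 3.58 ± 0.59 on the log2 scale (edgeR adjusted p = 0.0131). In WT the difference was 1.81 ± 0.56, or 3.51-fold, which missed the threshold (edgeR adjusted p = 0.121) although the groups did not overlap, and passed it with the replicate block (edgeR adjusted p = 0.0414). Without untreated WT replicate 3 that difference was 6.16-fold (edgeR adjusted p = 0.0662). Between untreated genotypes ITGB3 fell by 2.58 ± 0.60 in KO (edgeR adjusted p = 0.00927), and between treated genotypes the difference was -0.81 ± 0.55 with overlapping groups (edgeR adjusted p = 0.359). The KO response lost the call without untreated KO replicate 1 or 2 or treated KO replicate 2 (edgeR adjusted p of 0.0694, 0.0823 and 0.0529). Without treated KO replicate 2, the library with the highest ITGB3 of its group, the KO response was 6.50-fold and the treated genotype difference -1.71 (edgeR adjusted p = 0.0601). The untreated genotype difference lost it without untreated WT replicate 3, the highest of its group (edgeR adjusted p = 0.0515, log2 -1.79).

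Set against each other per kilobase of their longest coding transcript in GENCODE 29 (3333 bases for ITGA2B and 3995 for ITGB3), the alpha chain was the more abundant transcript in all 12 libraries. The ratio of ITGA2B to ITGB3 in CPM per kb ran from 7.11 to 17.0 in untreated WT, from 6.75 to 15.6 in treated WT, from 10.2 to 24.2 in untreated KO and from 4.45 to 14.1 in treated KO. These ranges overlapped between all groups. Treated KO replicate 2 had the lowest ratio, and it was the treated KO library with the highest ITGB3.

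GP1BA, the chain of the glycoprotein Ib-IX complex that binds von Willebrand factor (chr17:4932277-4935023), was higher in KO whether or not butyrate was given. Untreated WT held 2.11, 4.04 and 2.42 CPM and treated WT held 2.49, 4.91 and 6.01 CPM. Untreated KO held 9.74, 39.6 and 35.1 CPM and treated KO held 25.0, 35.9 and 23.1 CPM. Every KO library was above every WT library, and within each genotype the treated and untreated groups overlapped.

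GP1BA rose by 3.30 ± 0.48 on the log2 scale in untreated KO, or 9.84-fold (edgeR adjusted p = 0.000668), and by 2.64 ± 0.48 in treated KO, or 6.24-fold (edgeR adjusted p = 0.00298). Both calls held on leaving out each of the 6 libraries of the contrast in turn, with edgeR adjusted p up to 0.00611 and 0.0150. The butyrate difference was 0.65 ± 0.49 in WT (edgeR adjusted p = 0.537) and -0.01 ± 0.47 in KO (edgeR adjusted p = 1.00), and the sign of the KO value was opposite under other scalings (0.03 with DESeq2 size factors, 0.10 with library size alone). CHRNE, a gene on the opposite strand whose exons overlap those of GP1BA, held 0 to 60 counts in a library, against 39 to 1087 for GP1BA. It was also higher in KO, by 2.92 on the log2 scale untreated and 2.52 treated (edgeR adjusted p = 0.0384 and 0.0410), and the untreated call was lost without the libraries numbered 1 (edgeR adjusted p = 0.0991). Use of strand in the counting is not given in the sources used here, and the part of reads shared by the 2 genes was not tested.

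GP9, a small chain of the same complex (chr3:129054845-129062406), was counted in KO libraries and at 0 in all WT libraries. Untreated KO held 6, 1 and 10 counts, or 0.321, 0.0476 and 0.334 CPM, and treated KO held 54, 23 and 33 counts, or 2.48, 0.760 and 1.06 CPM. The 2 KO groups did not overlap. Taking 3 counts per library as the limit in WT, GP9 was at least 1.75-fold higher in untreated KO (edgeR adjusted p = 0.0359) and at least 11.4-fold higher in treated KO (edgeR adjusted p = 0.00639). The treated difference held on leaving out each of its 6 libraries in turn, with edgeR adjusted p up to 0.0224. Because GP9 entered the test only through treated KO, where it was high, neither this p-value nor these fits count as support for that difference. The untreated difference held only on leaving out untreated KO replicate 2, with edgeR adjusted p from 0.0716 to 0.0971 without any 1 of the other 5 libraries and 0.0871 without the 4 libraries numbered 1. With butyrate the KO difference was 2.57 ± 0.95, which missed the threshold (edgeR adjusted p = 0.186).

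Per kilobase, GP1BA exceeded GP9 in each of the 6 KO libraries, by a ratio of 10.8, 296 and 37.3 untreated and 3.59, 16.8 and 7.72 treated. The ratio of 296 rests on a single GP9 count. GP1BB, the third protein of the complex (chr22:19723539-19724771), was at 0 in all 12 libraries, but this 0 is uncertain. Its span lies inside that of SEPT5-GP1BB (chr22:19717220-19724774), a transcript that runs through SEPTIN5 and GP1BB on the same strand and that the table lists as a gene of its own, looked at after the values had been seen.

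SEPT5-GP1BB held 62, 52 and 70 counts in untreated WT, 128, 227 and 186 in treated WT, 18, 12 and 78 in untreated KO and 60, 306 and 168 in treated KO. Treated and untreated libraries overlapped in neither genotype on the CPM scale. The butyrate difference was 1.45 ± 0.57 in WT (edgeR adjusted p = 0.209) and 2.12 ± 0.58 in KO (edgeR adjusted p = 0.0728), the latter passing with the replicate block (edgeR adjusted p = 0.0414). SEPTIN5 itself, a septin that shares the locus, held 3 to 62 counts. Which part of the SEPT5-GP1BB counts lay over GP1BB cannot be read from a table of counts per gene.

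THBS1, an adhesive protein of the alpha granule that many other cell types also secrete (chr15:39581079-39599466), was higher with butyrate in both genotypes and higher in KO with and without it. Untreated WT held 0.271, 0.325 and 0.269 CPM, from 5, 7 and 8 counts, and treated WT held 3.42, 2.18 and 1.14 CPM. Untreated KO held 6.05, 6.23 and 2.27 CPM and treated KO held 48.5, 44.3 and 16.7 CPM. From lowest to highest the groups were untreated WT, treated WT, untreated KO and treated KO, and only treated WT and untreated KO overlapped. Replicate 3 was the lowest in treated WT and in both KO groups.

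THBS1 rose by 4.05 ± 0.59 on the log2 scale in untreated KO, or 16.5-fold (edgeR adjusted p = 0.000444), and by 4.03 ± 0.49 in treated KO, or 16.3-fold (edgeR adjusted p = 0.000314). Both calls held without each of the 6 libraries of the contrast in turn, with edgeR adjusted p up to 0.00399 and 0.00252. With butyrate it rose by 2.93 ± 0.60 in WT, or 7.63-fold (edgeR adjusted p = 0.0278), and by 2.91 ± 0.49 in KO, or 7.54-fold (edgeR adjusted p = 0.0132). The WT response lost the call without any 1 untreated WT library or treated WT replicate 2 (edgeR adjusted p from 0.0874 to 0.116), and without the 4 libraries numbered 1 (0.0551). The KO response lost it without untreated KO replicate 1 or 2 or treated KO replicate 2 (edgeR adjusted p from 0.0532 to 0.0676). FSIP1, which overlaps THBS1 on the opposite strand, held 4 to 34 counts.

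The chemokines of the alpha granule were at 0 in all libraries but 1. PF4 (chr4:73980811-73982124) and its near copy PF4V1 had 0 counts in all 12 libraries, which allows up to 3 counts in each. PPBP (chr4:73986439-73988190), the precursor of neutrophil-activating peptide, had 5 counts in treated WT replicate 1, or 0.259 CPM, and 0 in the other 11 libraries. Neither gene entered a test.

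RUNX1, a transcription factor of blood stem cells and megakaryocytes (chr21:34787801-35049302), was well above the limit in every group and was not called by the fit without a block. Untreated WT held 68.0, 106 and 62.0 CPM and treated WT held 209, 179 and 91.3 CPM. Untreated KO held 113, 197 and 96.3 CPM and treated KO held 150, 346 and 217 CPM. Neighbouring groups overlapped all along the order from untreated WT through untreated KO and treated WT to treated KO.

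The butyrate difference of RUNX1 was 1.02 ± 0.39 on the log2 scale in WT (edgeR adjusted p = 0.189) and 0.81 ± 0.38 in KO (edgeR adjusted p = 0.269). Between genotypes it was 0.78 ± 0.39 untreated (edgeR adjusted p = 0.176) and 0.58 ± 0.38 treated (edgeR adjusted p = 0.347). With the replicate block the WT butyrate difference and the untreated genotype difference passed, with edgeR adjusted p of 0.0321 and 0.0416. In both, all 3 pairs of same-numbered libraries moved the same way, by ratios of 3.07, 1.68 and 1.47 with butyrate in WT and of 1.66, 1.86 and 1.55 in untreated KO over WT.

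FLI1 (chr11:128685132-128813267) had 5 counts in treated WT replicate 2, 4 counts in treated KO replicate 3 and 0 in the other 10 libraries. SENCR, a transcript antisense to it, had 3 counts in that same treated KO library and 0 elsewhere. FLI1 was therefore at 0.213 CPM where it was highest, and entered no test.

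Across the tests, butyrate raised 2 of the 6 tested genes in WT (ITGA2B, THBS1) and lowered none, where 2.35% of all 15805 tested genes were called, 1.80% higher and 0.550% lower. In KO it raised 3 (ITGA2B, ITGB3, THBS1) and lowered none, against 3.40% of all tested genes called, 2.80% higher and 0.595% lower. With the replicate block the count in WT was 4, by the addition of ITGB3 and RUNX1. Between untreated genotypes 3 genes rose in KO (GP1BA, GP9, THBS1) and 2 fell (ITGA2B, ITGB3), where 22.6% of all tested genes were called, 11.7% higher and 10.9% lower. Between treated genotypes the same 3 rose and none passed in the other direction, where 19.0% were called, 10.1% higher and 8.89% lower. Since GP9 had to differ in order to be tested, its call adds nothing to these counts.

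Of the 5 genes with counts in every library, groups did not overlap for 3 with butyrate in WT and for 3 in KO, all higher. Over all tested genes this held for 11.3% higher and 10.4% lower in WT and for 12.6% higher and 11.8% lower in KO. Between untreated genotypes 2 of the 5 lay wholly higher and 2 wholly lower in KO, against 22.2% and 20.2% of all tested genes. Between treated genotypes 2 lay higher and 1 lower, against 17.9% and 16.0%. The median log2 butyrate difference of these 5 genes was 1.81 in WT and 2.25 in KO, beside 0.02 and 0.00 over all tested genes. Their median genotype difference was 0.78 untreated and 0.58 treated, beside 0.02 and 0.00, and it joins genes that moved in opposite directions. The comparisons share libraries, so their values stand side by side and are not independent of each other.

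**Figure D2:**
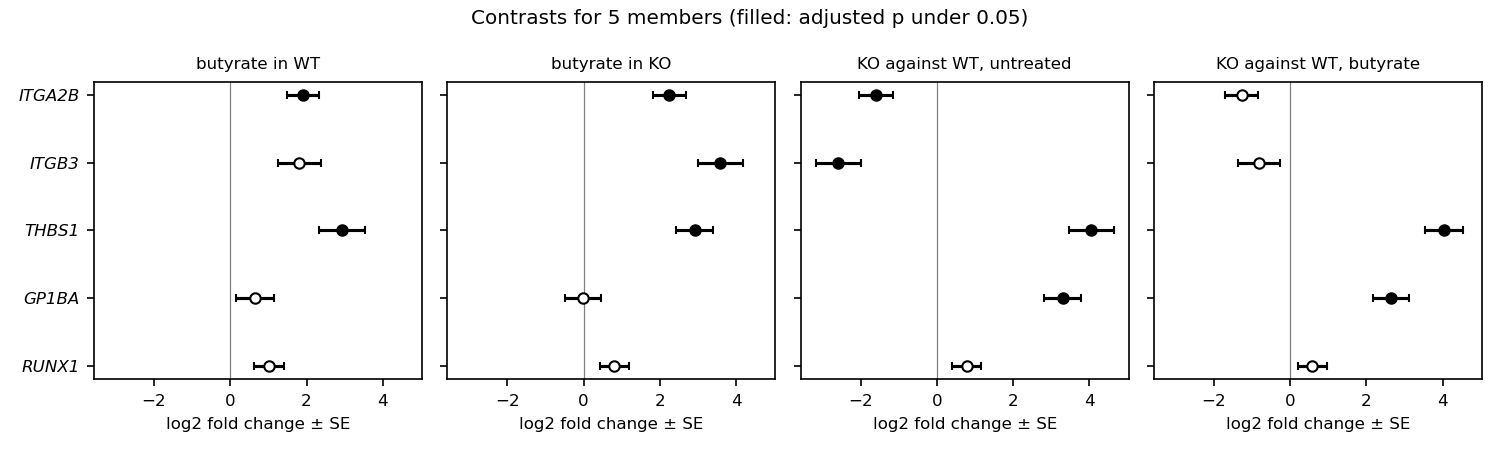
Log2 fold change and SE (horizontal axis) of 5 genes in 4 contrasts, with filled points for edgeR adjusted p under 0.05; GP9 is left out because it was at 0 in WT. ITGA2B and ITGB3 lie left of 0 and THBS1 and GP1BA right of 0 in both genotype contrasts, and ITGA2B, ITGB3 and THBS1 lie right of 0 in both butyrate contrasts.

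Whether the butyrate response differed between genotypes was tested as an interaction, the log2 response in KO minus that in WT. None of the genes passed in edgeR, where 0 of the 15805 tested genes were called (0.00%) and 658 had an unadjusted p under 0.05. DESeq2 called 81 of all genes and none of these. ITGB3 had the lowest unadjusted p of the members, 0.0487, with an interaction of 1.77 ± 0.81 (edgeR adjusted p = 1.00). For ITGA2B the interaction was 0.34 ± 0.61, for GP1BA -0.66 ± 0.68, for THBS1 -0.02 ± 0.77 and for RUNX1 -0.21 ± 0.54, each with edgeR adjusted p = 1.00. The standard errors bound these differences loosely, and no interaction could be given for GP9, which was at 0 in both WT groups.

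Same-numbered libraries gave butyrate ratios above 1 in all 6 pairs for ITGA2B, ITGB3, THBS1 and RUNX1. ITGA2B went up 6.30, 3.62 and 2.15 times in WT pairs 1, 2 and 3 and 10.6, 5.26 and 3.05 times in KO pairs. ITGB3 went up 6.88, 5.96 and 1.77 times in WT and 9.18, 22.7 and 5.27 times in KO. For THBS1 the WT ratios were 12.6, 6.70 and 4.25, and the KO ratios, at 8.01, 7.11 and 7.33, were closer together. Pair 1 was the highest of the 3 for ITGA2B and THBS1 in both genotypes and for ITGB3 and RUNX1 in WT, and pair 1 holds the libraries with the highest share of RNA28SN5, whose part in these ratios was not tested. GP1BA had ratios of 1.18, 1.22 and 2.48 in WT and of 2.57, 0.908 and 0.658 in KO, so its KO pairs did not move in 1 direction.

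**Figure D3:**
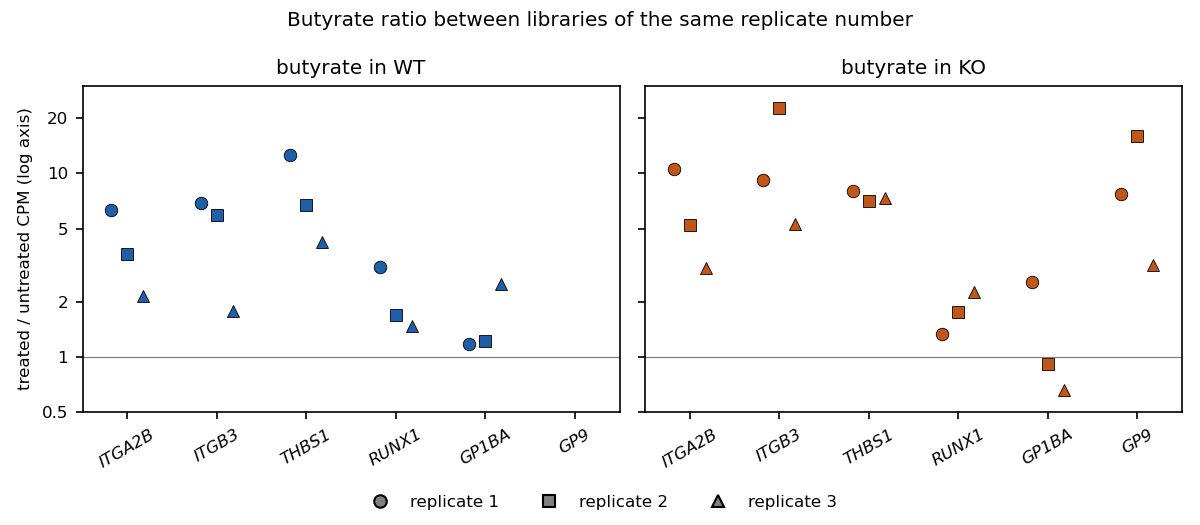
Ratio of treated to untreated CPM (vertical axis, log scale) between libraries of the same replicate number, for WT (left) and KO (right); the line marks a ratio of 1, and GP9 has no ratio in WT, where it was at 0. ITGA2B, ITGB3, THBS1 and RUNX1 lie above the line in all 6 pairs, and GP1BA lies on both sides of it in KO.

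Beyond the 10 genes, 5 lists of other megakaryocyte genes held 85 genes, of which 73 were tested. Butyrate called 4 higher and 1 lower in WT, where 1.80% and 0.550% of all tested genes were called, and 6 higher and 1 lower in KO, against 2.80% and 0.595%. Between genotypes 7 were higher and 20 lower in untreated KO, against 11.7% and 10.9%, and 7 higher and 13 lower in treated KO, against 10.1% and 8.89%. SYK, RAB27B, SRGN, P2RY1 and P2RX1 were at or near 0 in KO and had to differ in order to be tested. Their calls add nothing to these genotype counts. The replicate block raised the butyrate counts to 9 higher and 5 lower in WT and to 17 higher and 2 lower in KO, and the genotype counts to 9 and 28 untreated and to 10 and 21 treated. Without the 4 libraries numbered 1 the butyrate counts were 7 higher and 9 lower in WT, where lower calls then outnumbered higher ones, and 18 higher and 3 lower in KO, and the genotype counts were 9 and 27 untreated and 9 and 17 treated. The shares above belong to the fit of all libraries without the block. Both changes of setting also raised the butyrate calls over all tested genes, as the last paragraph gives, so the rise is not particular to these lists. List medians over genes with a fold were 0.15 and 0.66 for butyrate in WT and KO and -0.60 and -0.45 for the genotype, untreated and treated, beside medians of 0.02, 0.00, 0.02 and 0.00 over all tested genes.

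**Figure D4:**
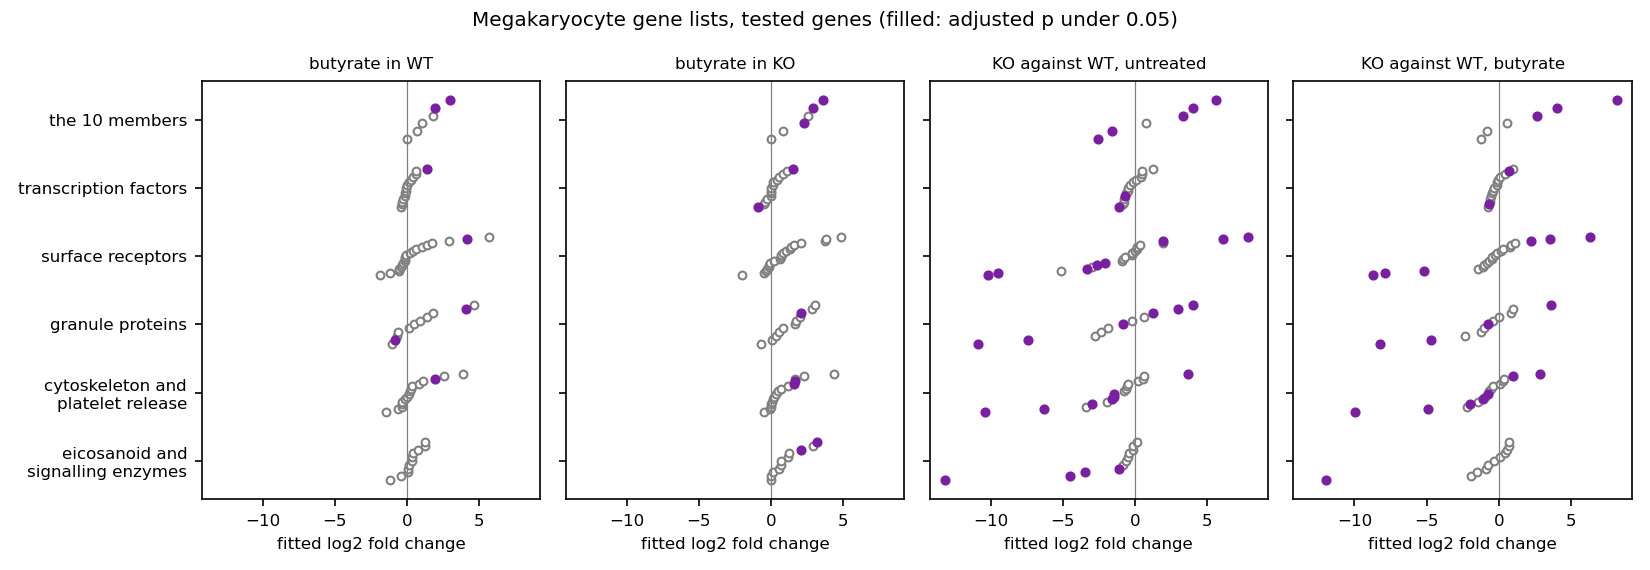
Fitted log2 fold change (horizontal axis) of each tested gene in the 10-gene set and in 5 further megakaryocyte lists, with filled points for edgeR adjusted p under 0.05; genes at 0 in a whole group, such as GP9 and SYK, are drawn at fitted values that are not bounds. Called genes lie mostly right of 0 in the butyrate panels and on both sides of 0 in the genotype panels.

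Of 16 transcription factors 15 were tested. With butyrate 1 was higher in WT, and 1 higher and 1 lower in KO. Over all tested genes 1.80% were higher and 0.550% lower in WT, and 2.80% and 0.595% in KO. In untreated KO 2 were lower, against 10.9%. In treated KO 1 was higher and 1 lower, against 10.1% and 8.89%. The replicate block gave 2 higher and 1 lower with butyrate in KO, 1 and 4 in untreated KO and 2 and 3 in treated KO. ZFPM1, the GATA1 partner also known as FOG1, rose with butyrate by 1.38 ± 0.30 in WT, from 41.0 to 107 CPM, and by 1.49 ± 0.30 in KO, from 29.6 to 82.9 CPM (edgeR adjusted p = 0.0393 and 0.0262), and the WT call was lost without the libraries numbered 1 (0.0519). MECOM fell with butyrate in KO, from 28.2 to 14.9 CPM (edgeR adjusted p = 0.0381). NFE2, a regulator of platelet release, fell in untreated KO from 346 to 157 CPM, a log2 change of -1.14 (edgeR adjusted p = 0.0125), and lost the call without untreated WT replicate 1 (0.0544). Its partner MAFG fell in both KO groups, by 0.70 untreated and 0.69 treated (edgeR adjusted p = 0.0232 and 0.0288). MRTFA, a coactivator of SRF, rose by 0.71 in treated KO (edgeR adjusted p = 0.0331). GATA1 and GATA2 passed in no contrast, with the lowest edgeR adjusted p at 0.0656 for GATA2 between treated genotypes. With the replicate block GATA1 passed between untreated and between treated genotypes (edgeR adjusted p = 0.0199 and 0.0274) and GATA2 between treated ones (0.0420).

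Of the 25 other surface receptors 20 were tested. In untreated KO 3 were higher and 5 lower than in untreated WT, against 11.7% and 10.9% of all tested genes. The replicate block gave 3 higher and 7 lower there. In treated KO 3 were higher and 3 lower than in treated WT, against 10.1% and 8.89%. MPIG6B, an inhibitory receptor of platelets, rose from 12.6 ± 5.58 to 850 ± 294 CPM in untreated KO and from 16.8 ± 4.85 to 1333 ± 477 CPM in treated KO (SD, n = 3), log2 changes of 6.07 and 6.31 (edgeR adjusted p = 2.89e-06 and 3.22e-06). ESAM, an adhesion molecule of platelets and endothelium, rose from 0.494 to 121 CPM in untreated KO and from 9.28 to 108 CPM in treated KO (edgeR adjusted p = 2.74e-05 and 0.00191). The purinergic receptors went the other way. P2RY1 fell from 55.8 to 0.0515 CPM untreated and from 42.0 to 0.0881 CPM treated (edgeR adjusted p = 4.87e-06 and 1.00e-05), and P2RX1 fell from 24.4 to 0.0317 CPM untreated (edgeR adjusted p = 0.000827). CD36 was at 0 in treated KO, at least 10.8-fold below the 1.20 CPM of treated WT (edgeR adjusted p = 0.00285). Its means were 0.157 CPM in untreated WT and 0.0178 CPM in untreated KO, so it passed the low-count filter through treated WT, where it was high. Its call therefore adds nothing to the count of receptors lower in treated KO. P2RY1 and P2RX1 were near 0 in KO and passed the filter through WT. Their calls add nothing to the counts of receptors lower in KO.

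With butyrate, ESAM was the 1 receptor called in WT, from 0.494 to 9.28 CPM (edgeR adjusted p = 0.0154), and no receptor was called in KO. In WT the replicate block called ESAM, CD9 and KIT higher and GP6 and TBXA2R lower. In KO it called CD9, GP6, KIT and PEAR1 higher. The interaction of ESAM was -4.27, with edgeR adjusted p of 0.263 without and 0.00456 with the replicate block. F13A1, SELP, CLEC1B and P2RY12, genes of mature megakaryocytes and platelets on these lists, were at 0 in every group, and the collagen receptor gene GP6 stood at 241 CPM in untreated WT and 56.4 CPM in untreated KO (edgeR adjusted p = 0.0255, and 0.111 without untreated WT replicate 1).

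Granule proteins, 17 listed and 11 tested, moved in both directions between genotypes. In untreated KO 3 were higher and 3 lower, against 11.7% and 10.9% of all tested genes. In treated KO 1 was higher and 3 lower, against 10.1% and 8.89%. The replicate block gave 2 higher and 3 lower in treated KO. SRGN, the proteoglycan core of granules, fell from 141 ± 25.3 to 0.0557 ± 0.0965 CPM in untreated KO and from 69.0 ± 13.9 to 0.233 ± 0.0593 CPM in treated KO (edgeR adjusted p = 3.57e-07 and 7.54e-07). SRGN passed the low-count filter through WT, where it was high, so its calls add nothing to the counts lower in KO. SPARC rose from 11.2 ± 1.73 to 180 ± 49.9 CPM untreated, a log2 change of 4.01, and from 21.2 to 263 CPM treated (edgeR adjusted p = 9.48e-07 and 2.13e-06). The growth factor chain PDGFA fell from 55.5 to 0.291 CPM untreated and from 33.2 to 1.25 CPM treated (edgeR adjusted p = 1.93e-05 and 0.000241). CLU, the chaperone clusterin, rose with butyrate by 4.06 ± 0.52 in WT and by 2.06 ± 0.48 in KO (edgeR adjusted p = 0.00540 and 0.0426), and was 2.97 higher in untreated KO (edgeR adjusted p = 0.00184). ANGPT1 fell with butyrate in WT, from 59.7 to 34.1 CPM (edgeR adjusted p = 0.0423).

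Of 16 tested genes of the cytoskeleton and of platelet release, 6 were lower and 1 higher in untreated KO, and 5 lower and 2 higher in treated KO. Over all tested genes 10.9% and 8.89% were called lower and 11.7% and 10.1% higher, untreated and treated. The replicate block gave 9 lower and 2 higher untreated and 7 lower and 2 higher treated. NBEA was higher in both KO groups and ACTN1, an actinin, in treated KO (edgeR adjusted p = 0.0106, 0.0235 and 0.0115). FERMT3, the kindlin that activates platelet integrins, fell from 295 ± 59.2 to 3.71 ± 2.28 CPM untreated and from 108 ± 70.9 to 3.54 ± 1.06 CPM treated (edgeR adjusted p = 1.78e-05 and 0.000100). Filamin A (FLNA) fell from 775 to 99.1 CPM and talin (TLN1) from 1008 to 370 CPM in untreated KO (edgeR adjusted p = 0.000311 and 0.000706). RAB27B, a granule trafficking GTPase, was at 0 in all KO libraries, at least 49.6-fold lower untreated and at least 46.0-fold lower treated (edgeR adjusted p = 0.000708 and 0.00101). It passed the low-count filter through WT, where it was high, so its calls add nothing to the counts of lower genes above. With butyrate, the myosin light chain MYL9 rose in WT and KO, by 1.90 and 1.56, and the myosin heavy chain MYH9 rose in KO from 153 to 483 CPM (edgeR adjusted p = 0.0299, 0.0493 and 0.0304).

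Of 11 eicosanoid and signalling enzymes, 4 fell in untreated KO and 1 in treated KO, beside 10.9% and 8.89% of all tested genes called lower. None was called higher, beside 11.7% and 10.1%. With the replicate block 5 fell in each and 1, PLCG2, was higher in treated KO. The kinase SYK was at 0 in all KO libraries against 46.4 ± 7.45 CPM in untreated WT and 20.3 ± 7.63 CPM in treated WT, at least 345-fold and 182-fold lower (edgeR adjusted p = 4.87e-06 and 1.04e-05). SYK passed the low-count filter through WT, where it was high, so its calls add nothing to the counts of enzymes that fell. PTGS1, the cyclooxygenase that feeds thromboxane synthesis in platelets, fell by 3.47 ± 0.62 in untreated KO and rose by 3.20 ± 0.62 with butyrate in KO, from 7.01 to 65.1 CPM (edgeR adjusted p = 0.00276 and 0.0264). PTPN6 rose with butyrate in KO, from 3.01 to 12.8 CPM (edgeR adjusted p = 0.0281).

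The butyrate calls in these lists were sensitive to single libraries, as those of the 10 genes were. In WT, CLU kept its call without each of the 6 libraries, and the other 4 called genes lost it without untreated WT replicate 1 or 2 or treated WT replicate 2, with edgeR adjusted p up to 0.165. In KO, all 7 called genes lost it without untreated KO replicate 1 or 2 or treated KO replicate 2, with edgeR adjusted p up to 0.204. The genotype calls of MPIG6B, ESAM, P2RY1, P2RX1, SRGN, SPARC, PDGFA, FERMT3, FLNA, RAB27B and SYK held without each of the 6 libraries in turn in both contrasts. Of these, P2RY1, P2RX1, SRGN, RAB27B and SYK were at or near 0 in KO and passed the low-count filter through WT, where they were high. For them, neither the p-values nor these fits count as support for the difference. MAFG and MRTFA lost their calls between genotypes without most single libraries, and TLN1 lost its call in the treated contrast (edgeR adjusted p up to 0.179, and 0.0963 without the libraries numbered 1).

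Likeness of pattern was measured as the root mean square difference in centred log2 CPM over the 12 libraries. For ITGA2B the closest genes were PCOLCE, at 0.37, and FGF22, at 0.41, where the median over all tested genes was 1.55. Its partner chain ITGB3 ranked 14th, at 0.65. The closest genes to ITGB3 were SNPH, at 0.51, and EGR3, at 0.58, and ITGA2B ranked 10th. GP1BA was closest to PAM and ABR, both at 0.47, and THBS1 to AQP7P1, at 0.67, and GATA6, at 0.80. For GP9, which was near 0 in most libraries, they were LOC100130264 at 0.35 and C1QTNF4 at 0.52. The integrin chains thus had like patterns, while GP1BA lay 2.45 from ITGA2B, beyond the median gene.

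Markers of other lineages also differed between the groups, and their part in the results above was not tested. The summed level of 10 myeloid markers was 43.4 to 70.9 CPM in untreated and 80.6 to 111 CPM in treated WT libraries, and 47.6 to 171 CPM in untreated and 219 to 266 CPM in treated KO libraries. ITGAM and CSF3R rose in untreated KO, from 1.04 to 40.8 CPM and from 2.00 to 38.2 CPM (edgeR adjusted p = 0.000769 and 0.000924). LYZ and SPI1 fell there, from 14.5 to 5.12 CPM and from 35.1 to 12.9 CPM (edgeR adjusted p = 0.0133 and 0.0215), and group means of MPO and ELANE were at most 0.242 CPM. LYZ kept its call in 5 and SPI1 in 3 of the 6 fits without a single library (edgeR adjusted p up to 0.0625 and 0.0885). Of 8 endothelial markers, CDH5, KDR and EMCN were at 0 in all 12 libraries. TIE1 rose with butyrate from 0.543 to 3.54 CPM in WT and from 0.168 to 9.10 CPM in KO (edgeR adjusted p = 0.0344 and 0.00229), PECAM1 fell in untreated KO from 8.95 to 0.765 CPM (edgeR adjusted p = 0.00704), and group means of EGFL7 were 113 to 196 CPM. The WT call of TIE1 held in 1 of the 6 fits without a single library (edgeR adjusted p up to 0.147). Among 6 stromal markers LUM was at 0, and COL1A1 rose with butyrate from 3.05 to 80.8 CPM in WT and from 3.08 to 96.9 CPM in KO (edgeR adjusted p = 0.00273 and 0.00211), beside THBS1. Of 7 lymphoid markers MS4A1 was at 0, and the summed level was 84.2 to 107 CPM in untreated WT and 4.66 to 6.33 CPM in untreated KO, where PTPRC, most of that sum in WT, fell from 76.7 to 0.574 CPM (edgeR adjusted p = 0.000109). CD3E went the other way, from 0.0619 to 1.62 CPM untreated and from 0.0318 to 3.05 CPM treated (edgeR adjusted p = 0.0105 and 0.00326).

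The erythroid genes set beside them held 15 tested genes, of which butyrate raised 5 in WT and 1 in KO and lowered none. Over all tested genes 1.80% in WT and 2.80% in KO were called higher, and 0.550% and 0.595% lower. In untreated KO 2 rose and 5 fell, against 11.7% and 10.9% of all tested genes. In treated KO none rose and 6 fell, against 10.1% and 8.89%. With the replicate block 3 rose and 8 fell in untreated KO and 1 rose and 7 fell in treated KO. Butyrate with the block raised 7 in WT and 2 in KO and lowered none. The shares above are without the block. The 5 that fell in untreated KO without the block were HBG1, from 2984 to 652 CPM, HBG2, from 5355 to 1390 CPM, HBA1, from 655 to 173 CPM, HBA2, from 563 to 127 CPM, and EPB42, from 1.32 to 0.178 CPM (edgeR adjusted p = 0.00121, 0.00261, 0.0225, 0.0155 and 0.0460). HBG1 and HBG2 kept the call in all 6 fits without a single library of the contrast. HBA1 and HBA2 kept it in 3 of 6 (edgeR adjusted p up to 0.0889 and 0.0632) and EPB42 in 0 of 6 (up to 0.126). The globin genes of each pair are near copies, so the split of reads within a pair is uncertain. ALAS2, the erythroid heme synthesis enzyme, stood at 24.0 ± 14.2 CPM in untreated WT and 181 ± 23.2 CPM in untreated KO (SD, n = 3; edgeR adjusted p = 0.000116). In untreated cells the KO libraries thus held less ITGA2B, ITGB3, HBG1, HBG2, HBA1 and HBA2 transcript and more GP1BA, THBS1 and ALAS2 than the WT libraries. Other globin genes were not on the list.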

How the data were processed

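The deposited table holds whole-number counts per gene symbol for 12 libraries, 3 in each of 4 groups, with groups and replicate numbers taken from the sample titles. FastQC 0.12.1, STAR 2.7.11b and the build hg38 are named in the submitters' processing notes, without a role. The counting tool, annotation, use of strand and filters are not given in the sources used here, so overlapping, antisense and near-identical genes can share reads. Every count column was matched to a sample (0 columns unused). Of the 28278 genes 6319 had 0 counts throughout.

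The deposited counts entered edgeR 4.0.16 (R 4.3.3) unchanged: filterByExpr with a minimum count of 10 kept 15805 genes, TMM set the scaling, and 1 quasi-likelihood fit with group means covered the 12 libraries (biological coefficient of variation 0.384). In each of 5 contrasts p-values were adjusted by Benjamini-Hochberg across the 15805 genes, with a threshold of 0.05. The SE is a Wald standard error from the same model. The scripts were tested on simulated data. Libraries of a group differed beyond sampling noise, with a chi-square per degree of freedom of at least 40.0.

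The titles give each group the same replicate numbers, and deviations from group means correlated between same-numbered libraries: 0.195 to 0.409 for butyrate in WT, 0.147 to 0.468 in KO, 0.210 to 0.361 between untreated genotypes and 0.315 to 0.595 between treated ones. The highest value between differently numbered libraries was 0.186, 0.123, 0.0692 and 0.343 in the same order. Between treated genotypes it lay above the lowest same-numbered pair. Every same-numbered pair exceeded 0.1, and on this the numbers were taken to pair the libraries. Some differently numbered pairs exceeded 0.1 too, so the pairing is an assumption. Blocked values stand beside the calls on the 10 genes that they change, and beside those counts over lists printed here that they change. Alternatives were another scaling, another filter, DESeq2 1.42.0, the block, fits of the contrast's groups alone and fits without single libraries or without the 4 libraries numbered 1.

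The 10 genes are all named. Of the further lists, at most the 4 called genes with the lowest p per list and contrast are named as a rule, and GP6, F13A1, SELP, CLEC1B, P2RY12, GATA1, GATA2, MPO, ELANE, COL1A1, ITGAM, CSF3R, LYZ, SPI1, TIE1, PECAM1, EGFL7, PTPRC, CD3E, CD9, KIT, PEAR1, TBXA2R, PLCG2, EPB42, NBEA and ACTN1 were added after their values were seen. The genes and lists were chosen with earlier results of these data known.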

Additional observations from a re-analysis of the deposited data

How the results depend on the processing

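With 3 libraries a group and a biological coefficient of variation of 0.384, the butyrate calls lay near the threshold and the calls on THBS1 and GP1BA between genotypes did not. The number of members called with butyrate in WT was 2, and became 1 with library size alone, 1 with at least 10 counts required in every library, 4 with the replicate block, 0 when only the groups of the contrast were fitted and 1 without the 4 libraries numbered 1. It ran from 0 to 2 on leaving out 1 library. In KO it ran from 0 to 3 on leaving out 1 library. Between untreated genotypes it was 5, became 3 with at least 10 counts in every library, which removes GP9 and THBS1 from the test, and ran from 2 to 5 on leaving out 1 library; between treated genotypes it was 3 and became 1 under that filter. The replicate block changed the call of ITGB3 and RUNX1 with butyrate in WT, of RUNX1 between untreated and of ITGA2B between treated genotypes, and no other member's call.

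The butyrate difference of GP1BA in KO, -0.01, turned to 0.03 with DESeq2 size factors, 0.10 with library size alone, 0.07 with the strict filter, 0.03 in DESeq2, 0.17 with the replicate block and 0.01 with its own groups alone, and ran from -0.42 to 0.31 on leaving out 1 library. The THBS1 interaction, -0.02, turned to 0.01, 0.15, 0.11 and 0.39 with DESeq2 size factors, library size alone, the replicate block and without the libraries numbered 1, and ran from -0.34 to 0.44 on leaving out 1. The RUNX1 interaction, -0.21, turned to 0.26 without the libraries numbered 1 and ran from -0.58 to 0.18, and that of ITGA2B ran from -0.05 to 0.85. Causes were not tested. Library size alone shifted the median of all genes by 0.12 with butyrate in KO. Of 197 fold changes refitted under settings that keep single libraries, 174 kept their direction and side of the threshold, and of 312 with 1 library left out, 269 did.

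Over all genes, the 372 called with butyrate in WT became 1296 in DESeq2, 1361 with the block, 63 with own groups alone and 1884 without the libraries numbered 1. The 537 in KO became 1490, 1852 and 2164 in DESeq2, with the block and without those libraries, and 304 under the strict filter. The 3574 between untreated genotypes became 2334 under that filter, and the 3009 between treated ones became 1947 under it, 4612 with the block and 1802 with own groups alone. The interaction gave 2 genes without a filter, 1 with the strict filter, 81 in DESeq2, 3 with the block and 9 without the libraries numbered 1.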
